A study of Mus musculus with 12 samples.

Results

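The Hox clusters of the mouse were examined for peaks of acetylated lysine K12 of histone H4 (H4K12ac) in neurons of the adult hippocampus. The members were all protein-coding genes of the GENCODE annotation (GRCm38) whose symbol is Hox, a cluster letter from a to d and a number. This gave 39 of 21951 protein-coding genes, 11 in HoxA, 10 in HoxB, 9 in HoxC and 9 in HoxD. HoxA lies at chr6:52155590-52260880, HoxB at chr11:96194316-96368256, HoxC at chr15:102921103-103036852 and HoxD at chr2:74668310-74765142, which is 492 kb in all. For comparison, the 5 nearest other protein-coding genes at each end of each cluster were taken, 40 neighbouring genes in all, whose TSSs lie 8.75 to 1173 kb from the cluster.

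ChIP-Seq for H4K12ac was performed on neuronal nuclei sorted by FACS from whole hippocampus at day 10 after tamoxifen, in 5 mice per genotype, Tip60 cKO and control. Tip60 (Kat5) encodes a lysine acetyltransferase of histone H4. Tip60 cKO mice carried floxed Tip60 alleles and CaMKCreERT2, a driver that is active in excitatory forebrain neurons upon tamoxifen. Controls were littermates with floxed alleles and no driver that also received tamoxifen. Both groups are labelled as male C57BL/6J animals of 3 months, whereas the methods of the study name either sex and a C57BL/6N background. The sorted nuclei also contain neurons in which the driver is not active, so a lower level in every nucleus and a loss in some nuclei cannot be told apart.

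Hox genes encode homeodomain transcription factors that give cells their position along the body axis, and their order on the chromosome follows the order of their expression from head to tail. In the central nervous system they act in the hindbrain and the spinal cord, while the forebrain forms outside their domain. Where they are silent, the clusters are known as large domains of Polycomb repression and H3K27 methylation, and MLL complexes and H3K27 demethylases act in the opposite direction.

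The 10 libraries held between 64245 and 136409 peaks from 22864189 to 37923809 tags, and the peaks covered between 0.829 and 2.40% of the genome. The TSS of Kat5 had a peak in all 10 lists, which does not test the deletion. Of 8 neuron marker genes 7 had a peak at the TSS in all lists, and Gad1, which marks inhibitory neurons, had none. Of 9 markers of glia and other cells 3 had a peak in any list, namely Mbp in all 10, Gfap in 9 and Cldn5 in 1. A place without a peak did not pass the q of 0.1 in its library, and acetylation that did not pass cannot be seen in these lists. The lowest pileup of a listed peak was 8 to 11 fragments, depending on the library.

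H4K12ac peaks were almost absent from the Hox clusters in both genotypes. HoxB, HoxC and HoxD held 0 peaks in each of the 10 lists. HoxA held exactly 1 peak in each list, and it lay at the same place near the 5′ end of Hoxa7, which acts in patterning of the trunk. Thus 38 of 39 Hox genes had no peak within 2 kb of the TSS in any list, compared with 7616 of all 21951 protein-coding genes (34.7%) and 5 of 40 neighbouring genes. Some Hox genes share a start region and are counted separately. Examples are Hoxd3 and Hoxd4 (chr2:74711927 and chr2:74711929) and Hoxc10 and Hoxc5 (chr15:102966796 and chr15:102967443). A peak in all 10 lists was present at 1 of 39 Hox genes, at 44.0% of all protein-coding genes and at 25 of the 40 neighbouring genes.

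**Figure D1:**
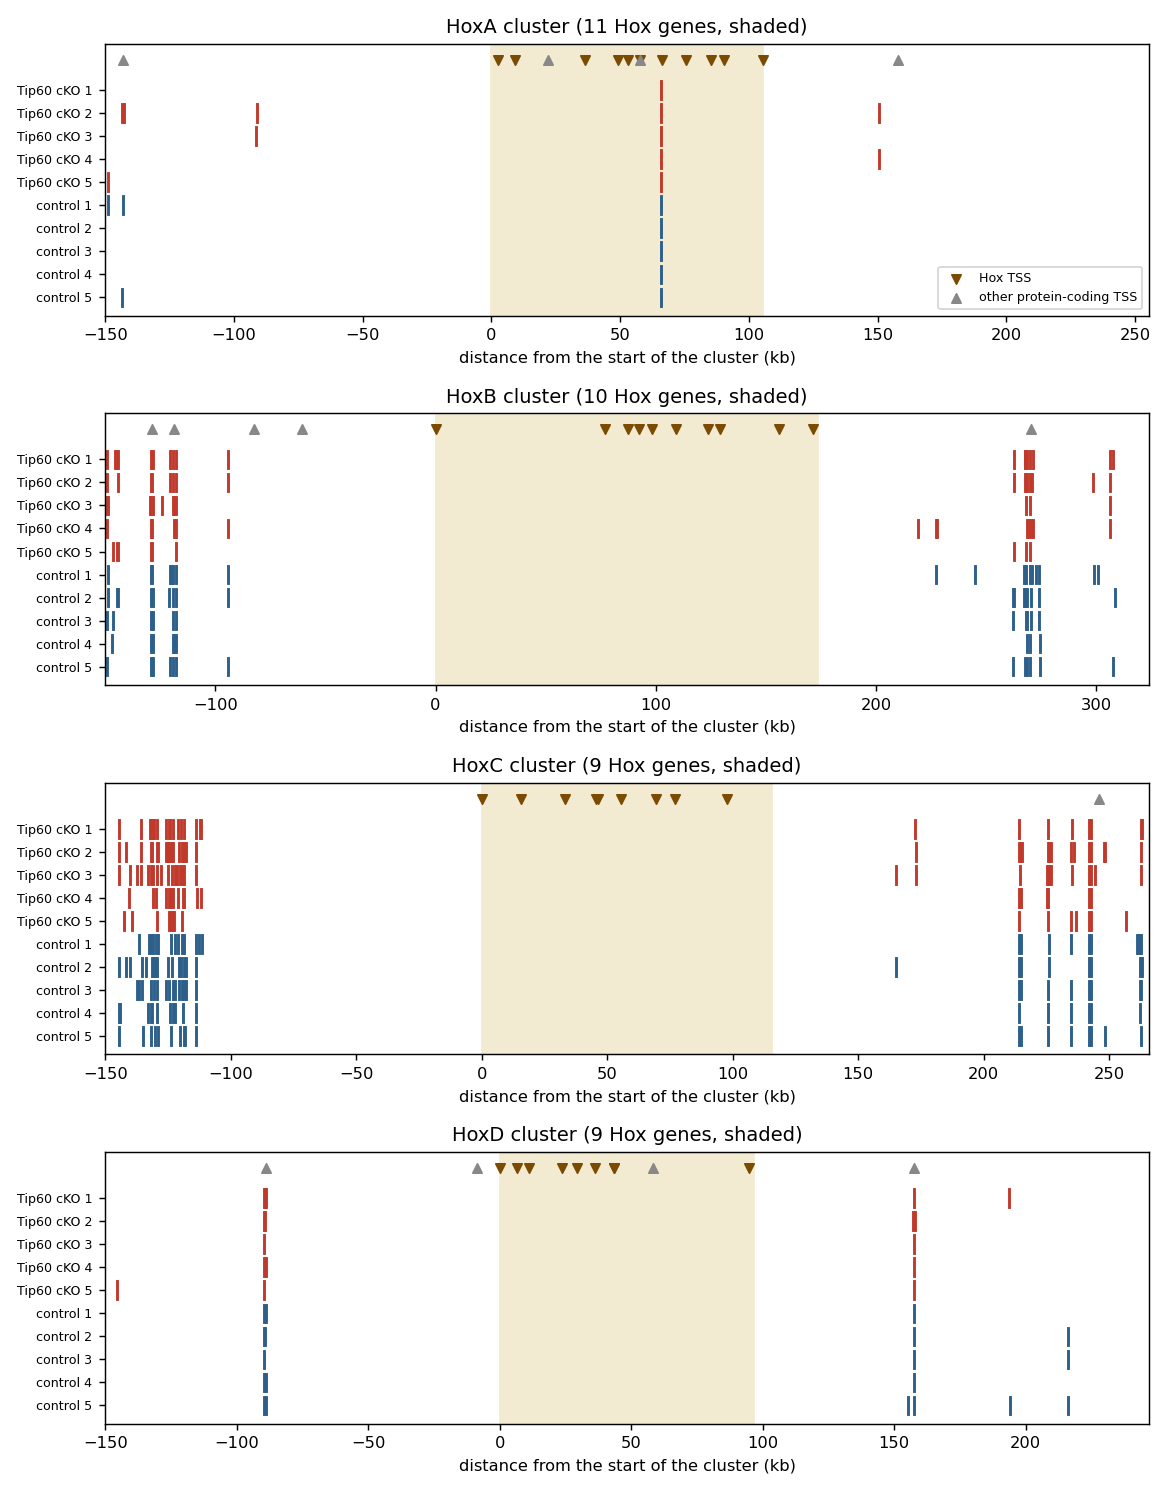
Peaks in the 10 lists (coloured ticks, one row per mouse) over each Hox cluster (shaded) and 150 kb on either side, by distance from the start of the cluster in kb. Triangles mark TSSs of Hox genes (brown) and of other protein-coding genes (grey), and the single place with peaks inside a cluster is the one at Hoxa7.

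The sequences below show the intronic part of the Hoxa7 peak and the contrast with promoters that lacked a peak. They were read from the GRCm38 genome and the RefSeq promoter table of the same build, are given 5′ to 3′ on the strand of the gene, and have every CpG dinucleotide in capitals. The Hoxa7 sequence is the intronic part of the merged peak at chr6:52221358-52221546 (minus strand). This part is an edge of the peak, with 14 of its 35 CpGs. All summits (chr6:52221550-52221699) lay outside it, and so did most of the bases shared by all lists (chr6:52221516-52221678). Hoxa13 (chr6:52260881-52261130, minus strand), Hoxb4 (chr11:96318017-96318266, plus strand) and Hoxd13 (chr2:74667975-74668224, plus strand) are the 250 bases upstream of the RefSeq start with the most CpGs in their cluster among those free of annotated exons, and had no peak in any list. For HoxC, no upstream sequence of the table met that condition. The table held starts of only 22 of the 39 Hox genes. Genes absent from it, such as Hoxa4, Hoxb5 and Hoxb9, could therefore not be chosen. Chn1 (chr2:73775347-73775596, minus strand), chosen in the same way among neighbouring genes with a peak in all 10 lists, encodes a Rac GTPase activating protein.
Hoxa7 peak, intronic part: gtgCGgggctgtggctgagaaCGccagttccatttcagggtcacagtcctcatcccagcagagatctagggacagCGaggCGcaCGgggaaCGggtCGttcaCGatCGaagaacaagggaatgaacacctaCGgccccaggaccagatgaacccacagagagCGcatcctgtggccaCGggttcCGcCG
Hoxa13: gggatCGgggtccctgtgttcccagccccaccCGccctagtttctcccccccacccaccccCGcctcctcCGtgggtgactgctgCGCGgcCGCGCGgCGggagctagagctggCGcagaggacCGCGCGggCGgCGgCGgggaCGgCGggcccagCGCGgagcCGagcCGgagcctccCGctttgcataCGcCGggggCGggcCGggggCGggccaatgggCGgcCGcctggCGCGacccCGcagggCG
Hoxb4: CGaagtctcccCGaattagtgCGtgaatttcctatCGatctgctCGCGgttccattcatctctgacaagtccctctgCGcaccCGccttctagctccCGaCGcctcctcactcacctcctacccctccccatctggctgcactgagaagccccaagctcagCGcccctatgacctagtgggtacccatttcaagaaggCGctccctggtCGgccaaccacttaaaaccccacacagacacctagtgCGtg
Hoxd13: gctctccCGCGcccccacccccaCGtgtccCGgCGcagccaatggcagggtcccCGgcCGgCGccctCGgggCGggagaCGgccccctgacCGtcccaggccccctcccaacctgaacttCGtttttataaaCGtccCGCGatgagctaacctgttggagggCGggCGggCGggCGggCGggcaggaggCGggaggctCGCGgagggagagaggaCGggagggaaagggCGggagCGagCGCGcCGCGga
Chn1: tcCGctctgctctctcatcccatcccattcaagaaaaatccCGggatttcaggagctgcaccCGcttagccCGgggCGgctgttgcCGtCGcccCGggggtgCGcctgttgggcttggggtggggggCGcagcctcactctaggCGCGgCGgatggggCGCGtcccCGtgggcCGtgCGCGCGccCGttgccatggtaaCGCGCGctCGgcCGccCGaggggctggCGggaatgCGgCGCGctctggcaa
The 250 bases of Hoxd13, a gene of digit formation, and of Chn1 both held 31 CpGs, yet a peak was found at the start of Chn1 in all 10 lists and at that of Hoxd13 in none. Hoxa13, which acts in limb and genital development, held 35 CpGs, and Hoxb4, a regulator of blood stem cells, held 14.

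The Hoxa7 peak was the only one in the 492 kb of the clusters. Merged over the lists it spanned chr6:52221358-52221827 (470 bases), and 163 bases at chr6:52221516-52221678 were part of the peak in all lists. Its summits fell between 155 and 304 bases downstream of the GENCODE 5′ end of Hoxa7 (position 52221854, minus strand). The annotation places there the non-coding first exon of transcript Hoxa7-204, chr6:52221547-52221854, which is 5′ UTR, and the start of the following intron. GENCODE gives this transcript support level 5, its lowest, and the 1 other Hoxa7 transcript that starts within 2 kb of the peak (support level 1) is annotated as subject to nonsense-mediated decay and starts 965 bases from the peak edge. Whether the peak marks a promoter of Hoxa7 cannot be told from peak lists, and the count of 1 Hox gene with a peak depends on these 5′ ends. The RefSeq start of Hoxa7 (position 52218573) lies 2.79 kb from the nearest edge of the peak, so no peak fell within 2 kb of it. At the 24 RefSeq starts of 22 Hox genes in the promoter table, a check added after the data were seen, no list had a peak. With all annotated transcript starts in place of one start per gene, Hoxa7 again was the only Hox gene with a peak, in all 10 lists.

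**Figure D2:**
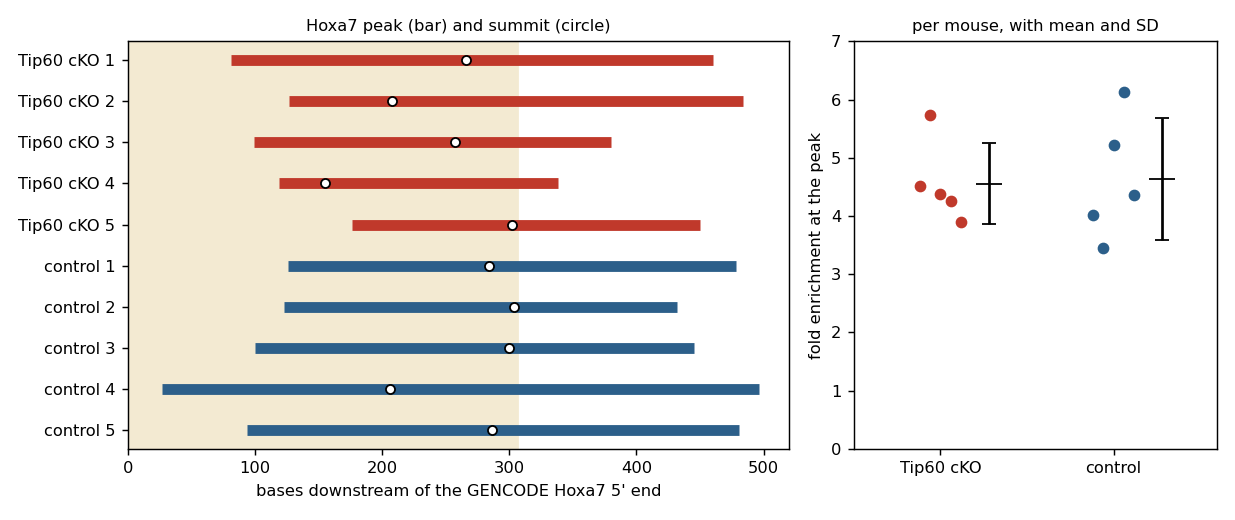
Left, the Hoxa7 peak of each mouse (bar) with its summit (circle), in bases downstream of the GENCODE 5′ end, with the non-coding first exon shaded. Right, the fold enrichment of the peak per mouse with mean and SD, which lies between 3.90 and 5.73 in Tip60 cKO and between 3.45 and 6.13 in control mice.

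The strength of the Hoxa7 peak overlapped fully between the genotypes. The fold enrichment, the ratio of pileup to background, was 4.52, 5.73, 4.38, 4.25 and 3.90 in Tip60 cKO mice 1 to 5. In control mice 1 to 5 it was 4.02, 3.45, 5.22, 6.13 and 4.37. The lowest and the highest value both came from control mice. The means were 4.56 ± 0.697 and 4.64 ± 1.05 (SD, n = 5 each), and they did not differ beyond the spread (two-sided exact permutation test, p = 0.897). On sequencing lane 7, the 3 mice per genotype gave a difference (Tip60 cKO minus control) of 0.647, and on lane 8, the 2 mice per genotype gave -1.17.

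Scaled to 10000000 tags the pileup at the Hoxa7 summit was 5.66, 6.77, 6.07, 5.47 and 5.25 fragments in Tip60 cKO mice. It was 5.33, 4.71, 6.94, 8.39 and 5.54 in control mice. The ranges overlapped, with means of 5.84 ± 0.599 and 6.18 ± 1.48 (SD, n = 5 each; exact permutation test, p = 0.675). In every list the background at this summit, recovered from pileup and fold enrichment, equalled the lowest background of that list. Within the lists the peak stood in the middle to the upper range, since between 40.7 and 93.6% of all peaks of a Tip60 cKO list and between 52.2 and 92.4% of a control list had a lower fold enrichment. Among peaks at protein-coding TSSs it was below the median of its library in all mice but Tip60 cKO mouse 2 and control mouse 4, as the median fold enrichment there was 5.07 to 5.37 (Tip60 cKO lists) or 5.56 to 5.92 (control lists).

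To compare genotypes at each TSS across lists of different length, the strongest peak was turned into a rank score, the percent of all annotated TSS windows of the library that it reached or exceeded, with 0 for no peak. The rank score of Hoxa7 was 79.3, 90.6, 79.9, 77.3 and 77.1 in Tip60 cKO mice and 74.9, 70.8, 81.1, 88.7 and 76.8 in control mice. The groups overlapped. The difference of 2.39 (SE 3.92, 95% interval -6.45 to 11.2) was not called by limma across 21672 TSSs with a peak in at least 2 lists (adjusted p = 0.809, unadjusted p = 0.557). It was -0.05 without Tip60 cKO mouse 2, 0.47 without control mouse 2 and 4.95 without control mouse 4, and the lanes differed in sign, with 7.69 on lane 7 and -5.56 on lane 8. Of the Hox genes 1 could be tested and 0 were called, beside 51 of all 21672 TSSs (0.235%). At an unadjusted p below 0.05 it was again 0, beside 2554 of all TSSs (11.8%). The other 38 Hox genes gave no genotype comparison, since none had a peak in either genotype.

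Limma called no genotype difference in the cluster regions either. Of 144781 consensus regions with peaks in at least 2 lists, 3 lay in the clusters and 50 kb on either side. None of these 3 was called by limma, beside 814 of all regions (0.562%), and none had an unadjusted p below 0.05, beside 17391 of all regions (12.0%). The Hoxa7 region differed by 3.88 in rank score (SE 6.85, 95% interval -11.4 to 19.2, adjusted p = 0.900), by -0.199 without control mouse 2 and by 7.22 without control mouse 4. The other 2 regions had a peak in exactly 2 lists, the least that the filter allows, so their differences are not given. A region at chr6:52305910-52306183, 45.0 kb beyond HoxA towards Evx1, had a peak in Tip60 cKO mice 2 and 4 and in no control, and it passed the filter only through these mice. The third region, at chr15:103085870-103086388 beyond HoxC, had a peak in Tip60 cKO mouse 3 and control mouse 2.

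The share of HoxA covered by peaks follows from the length of the Hoxa7 peak. Tip60 cKO mice had 0.361, 0.340, 0.268, 0.209 and 0.261% and control mice 0.335, 0.294, 0.329, 0.446 and 0.368%. The ranges overlapped, and the means of 0.288 ± 0.0620% and 0.355 ± 0.0576% (SD, n = 5 each) did not differ beyond the spread (exact permutation test, p = 0.119). On lane 7 the difference was 0.00348 and on lane 8 it was -0.172 percentage points. Divided by the share of the genome covered in the same library, HoxA reached 0.194 ± 0.0748 (Tip60 cKO) and 0.182 ± 0.0722 (control) (p = 0.746, exact permutation test). The order of the genotypes thus turned, but this difference ranged from -0.0173 to 0.0441 without single libraries. Tip60 cKO mouse 5, with the fewest peaks, had 0.315, and the other Tip60 cKO mice had at most 0.217. Over the 4 clusters together, peaks covered 0.0616 ± 0.0133% (Tip60 cKO) and 0.0759 ± 0.0123% (control).

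The stretch without peaks reached beyond each cluster. The nearest peak on the side of the lower coordinates was 91.1 to 299 kb away from HoxA, 93.96 to 118 kb from HoxB, 111 to 119 kb from HoxC and 88.7 to 89.4 kb from HoxD, depending on the library. On the other side it was 45.0 to 453 kb from HoxA, 45.0 to 94.4 kb from HoxB, 49.02 to 98.2 kb from HoxC and 58.5 to 60.5 kb from HoxD. At HoxD, whose genes pattern the digits and the genitalia, both distances varied little between mice, with a peak near the neighbours Lnpk and Mtx2 in all lists. Within 50 kb of a cluster, 5 peaks were found in all lists together, in Tip60 cKO mice 2, 3 and 4 and control mouse 2, and none of them at HoxD.

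Coverage was lowest in and next to the clusters in both genotypes. Within 50 kb on either side Tip60 cKO mice had 0.0588 ± 0.0633% and controls 0.0108 ± 0.0242% (SD, n = 5 each), with 2 and 4 mice at 0. Between 50 and 100 kb it was 1.23 ± 0.357% and 1.32 ± 0.270%. Between 100 and 200 kb it reached 3.33 ± 0.776% and 3.94 ± 0.592%, which is above the genome-wide share of 1.61 ± 0.514% and 2.07 ± 0.391%. The genotypes overlapped at each distance.

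**Figure D3:**
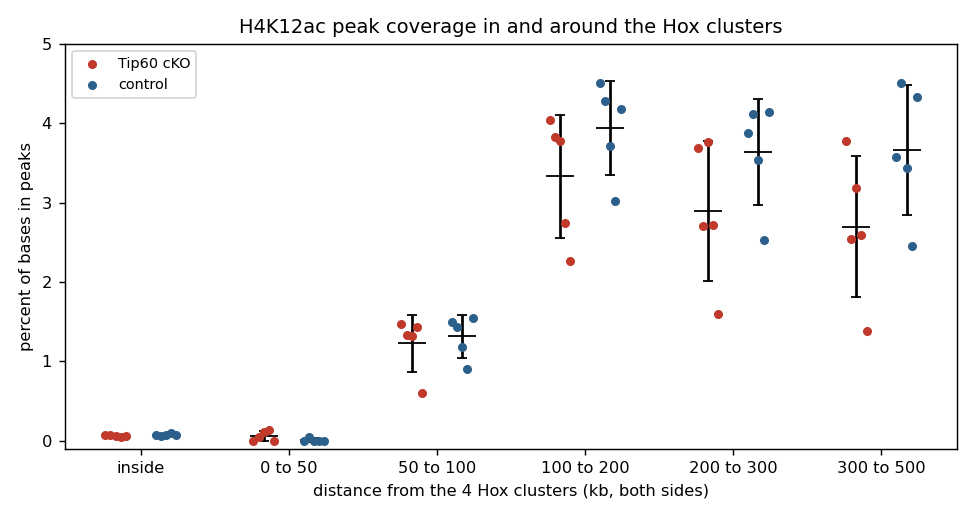
Percent of bases in peaks inside the 4 Hox clusters and at increasing distance in kb on both sides, per mouse (points) with mean and SD (bars) for each genotype. Inside the clusters all 10 mice lie between 0.0447 and 0.0956%, and from 100 to 200 kb between 2.27 and 4.51%.

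Over the peaks of all 10 lists, the stretches without a peak that hold the clusters were 313 kb long for HoxB (12 protein-coding TSSs, of which 10 were Hox), 276 kb for HoxC (9 TSSs, all Hox) and 244 kb for HoxD (11 TSSs, of which 9 were Hox). HoxA was divided by the Hoxa7 peak into stretches of 157 and 84.1 kb. The median stretch between peaks was 0.857 kb, and only 0.364% of all stretches were as long as that of HoxB. There were 122 stretches with at least 9 protein-coding TSSs. By gene symbols, 26 of these were classed as olfactory receptor, 12 as vomeronasal receptor and 19 as predicted gene stretches, and 3 were HoxB, HoxC and HoxD. In some of the 19 the leading symbol family was no majority, as at chrX:102644193-102932948 (Dmrtc, 4 of 10 TSSs). The remaining 62 included clusters of keratin-associated proteins, prolactins, defensins, protocadherins and the Rhox homeobox genes of the reproductive tract.

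In the 300-base promoter, genes of the Hox stretches held more CpGs than those of the other stretches. The median number of CpGs in the promoter, from 250 bases before to 50 bases after the TSS, was 12, 13 and 17 for the genes of the HoxB, HoxD and HoxC stretches, whereas it was between 0 and 11 in the other 119 stretches. In the window of 2 kb on either side the ranges overlapped, with medians of 102 (HoxB) to 143 CpGs in the Hox stretches and 11 to 114.5 in the others. Among the others, the protocadherin stretches Pcdhb, Pcdhga and Pcdha had medians of 69.5, 98.0 and 114.5. Over all 39 Hox genes the median was 16 CpGs, compared with 18 in the 40 neighbouring genes and 11 in all protein-coding genes. The fewest were 3 in Hoxb2, which acts in the hindbrain, and the most were 47 in Hoxa4 and 45 in Hoxa13.

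In other protein-coding genes the share with a peak in any list rose with promoter CpGs, from 21.9% of genes with 0 to 4 CpGs to 82.3% with 10 to 14 and 97.9% with 30 or more. Of the Hox genes, 1 of 10 with 10 to 14 CpGs had a peak, which was Hoxa7 with 13. With 15 to 19 CpGs, 92.2% of 2453 other genes and 0 of 11 Hox genes had a peak. With 20 to 29 CpGs the same held for 95.7% of 4070 other genes and 0 of 7 Hox genes, among them Hoxb5 and Hoxc8. With 30 or more, it held for 97.9% of 2814 other genes and for none of Hoxa4, Hoxa13 and Hoxd13. Counted over the whole window of 2 kb on either side, 96.0% of 5617 other genes with 100 to 149 CpGs had a peak and 1 of 17 Hox genes. With 150 to 199 CpGs these were 96.1% and 0 of 10. These shares are a description, and CpG content was not matched in any test.

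**Figure D4:**
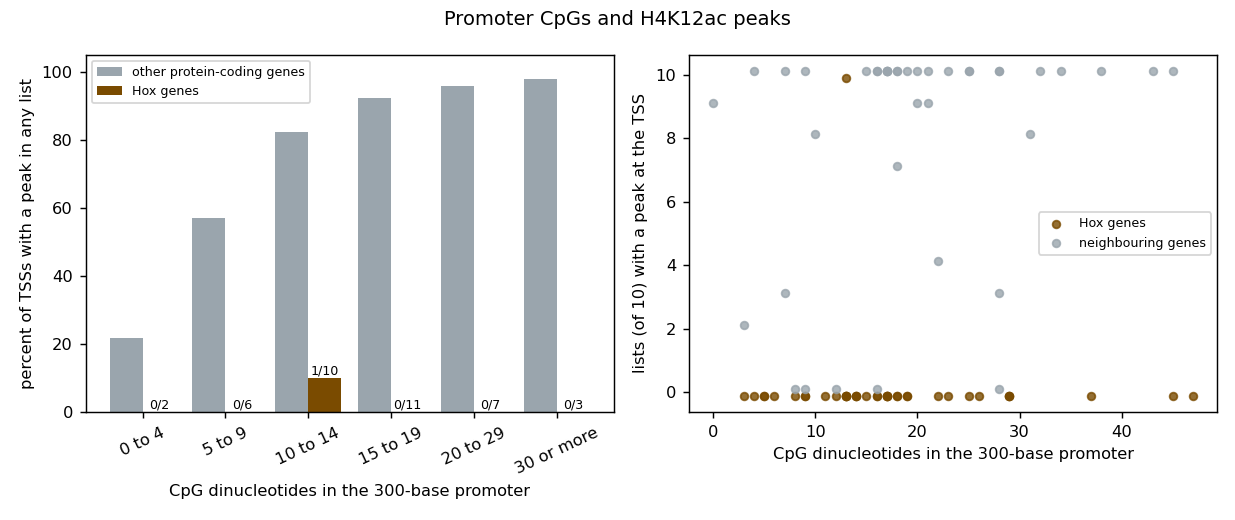
Left, percent of TSSs with a peak in any list by the number of CpGs in the 300-base promoter, for Hox genes (brown, with counts) and all other protein-coding genes (grey). Right, the number of lists with a peak for each Hox gene and each neighbouring gene against its promoter CpGs, where 38 Hox genes lie at 0 and Hoxa7 at 10.

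The peak at Hoxa7 was itself rich in CpGs. Its 470 bases held 35 CpGs with 60.6% GC, whereas 470 bases around the middle of 144772 consensus regions held a median of 6, and 5.04% held as many. Motifs were searched on both strands. The CCAAT box, the GC box GGGCGG, the E-box CACGTG, the TATA box TATAAA and the PBX and HOX dimer site TGATNNAT had no match in the peak, and 42.3, 16.1, 7.70, 15.8 and 13.8% of the consensus regions held them. ATGGCGG, the core of the YY1 motif, matched on the opposite strand at chr6:52221773-52221779 in the exon, and 2.69% of the consensus regions held it. The full match lay in the peak of control mouse 4 alone, outside the stretch that was part of the peak in all lists. In the 300-base promoters, TGATNNAT was found in 8 of 39 Hox genes and in 7.26% of 21931 protein-coding genes, CCAAT in 26 of 39 and in 39.0%, and CACGTG in 9 of 39 and in 7.76%. GGGCGG was found in 15 of 39 Hox genes and in 43.0% of all, TATAAA in 6 of 39 and in 12.7%, and ATGGCGG in 1 of 39 and in 4.79%.

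With a peak at 1 Hox gene only, an effect of position within the clusters on the presence of a peak could not be tested. None of the 12 Hox genes of paralog groups 1 to 4, which act in the hindbrain and neck, had a peak, nor had any of the 16 genes of groups 9 to 13, which act in the posterior trunk and the limbs. Of the 11 genes of groups 5 to 8, Hoxa7 alone had one. The median distance from the TSS to the nearest peak over the lists ranged, apart from Hoxa7, from 8.06 kb in Hoxa3 to 175 kb in Hoxb8. In HoxC, Hoxc9 had the largest distance at 158 kb, and in HoxD it was Hoxd8 at 121 kb.

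Other transcripts of the clusters had no peak at the TSS either. None of 43 noncoding genes that overlap the clusters had one in any list, among them Hotair, Hotairm1, Hoxa11os and Haglr and the miRNA genes Mir10a, Mir10b, Mir196a-1, Mir196a-2, Mir196b and Mir615. The 3 other protein-coding gene models inside the clusters, Gm28308, 5730596B20Rik and Gm28230, also had none. Several of these share their start region with a Hox gene, so they are not independent of the members.

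Many of the neighbouring genes belong to families that flank more than one Hox cluster. The Evx genes, homeobox genes that adjoin the posterior ends of HoxA and HoxD, resembled the Hox genes, as Evx1 at 52.6 kb and Evx2 at 8.75 kb had no peak in any list. The Atp5g genes, which encode the c subunit of ATP synthase, had a peak in all 10 lists at 119 kb from HoxB (Atp5g1), 248.8 kb from HoxC (Atp5g2) and 757 kb from HoxD (Atp5g3). At Atp5g3 the fold enrichment was 10.1, 9.04, 9.42, 9.62 and 7.20 in Tip60 cKO and 9.95, 13.003, 11.1, 10.98 and 10.7 in control mice. These were the highest mean values of the neighbours, and the groups overlapped at the lowest control and the highest Tip60 cKO mouse. The median fold enrichment at all protein-coding TSSs with a peak was also lower in every Tip60 cKO library (5.07 to 5.37) than in any control (5.56 to 5.92), and in rank score Atp5g3 differed by -0.41 (limma, 95% interval -3.53 to 2.72, adjusted p = 0.946).

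Genes for RNA-binding hnRNP proteins and heterochromatin proteins followed the same course. Hnrnpa2b1 and Cbx3, which share their window 685 kb or more from HoxA, Hnrnpa1 and Cbx5, which share theirs 203 kb or more from HoxC, and Hnrnpa3 at 894 kb from HoxD had a peak in all 10 lists, and Cbx1 at 421 kb from HoxB in 9. The NF-E2 family of bZIP factors varied, with a peak in all lists at Nfe2l3 (HoxA) and Nfe2l1 (HoxB) and in 7 at Nfe2l2 (HoxD). Nfe2 (HoxC), which is an erythroid gene, had a peak in 3 control lists and in no Tip60 cKO list. Of the ATF and CREB5 genes, Atf7 and Atf2 had a peak in all lists and Creb5 in none. Skap1, an adaptor of Src kinases, had one in all lists on the HoxB side, and its paralog Skap2, at 143 kb from HoxA, in 3.

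The nearest gene on each side gave a mixed picture. Mtx2, which encodes a protein of the outer mitochondrial membrane, starts 60.7 kb from HoxD. Its fold enrichment was 6.16, 5.73, 7.67, 3.54 and 7.20 in Tip60 cKO and 9.53, 8.74, 7.26, 8.17 and 7.74 in control mice, with 1 Tip60 cKO mouse above the lowest control. In rank score, which is relative to the library's own TSS windows, it differed by -6.75 (limma, 95% interval -17.6 to 4.08, adjusted p = 0.599), and the median fold enrichment at TSSs was lower in all Tip60 cKO libraries, as given for Atp5g3. Skap1 and Calcoco1, at 96.3 and 199 kb, also had a peak in all lists. Ttll6, a tubulin polyglutamylase at 60.5 kb from HoxB, had none, and Smug1, a uracil DNA glycosylase at 130 kb from HoxC, had a peak in 2 Tip60 cKO lists. At the RefSeq start of Smug1 a peak was present in all 10 lists.

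**Figure D5:**
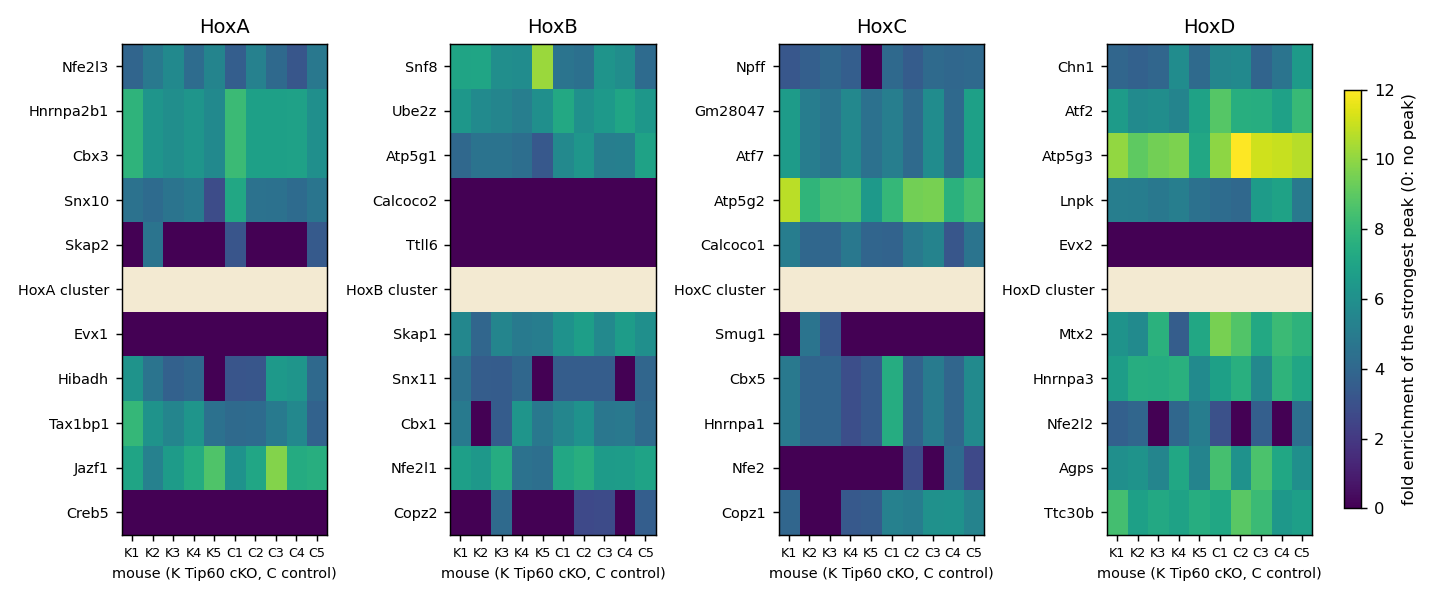
Fold enrichment of the strongest peak within 2 kb of the TSS (colour, 0 without a peak) for the 5 nearest protein-coding genes at each end of each cluster, in chromosomal order, in Tip60 cKO (K) and control (C) mice. Of the 40 genes 25 have a peak in all 10 mice, 10 in some and 5 in none.

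A genotype difference was not called at any neighbouring gene. A peak was present at 76.0 ± 3.35% of the neighbours (Tip60 cKO) and at 80 ± 3.54% (control; SD, n = 5 each), and at 54.9 ± 3.02% and 57.3 ± 0.873% of all protein-coding genes. Peaks covered 18.3 ± 3.66% of the neighbours' windows (Tip60 cKO) and 22.8 ± 2.37% (control), beside 0.194 ± 0.0419% and 0.239 ± 0.0389% of the Hox windows. Of the whole genome they covered 1.61 ± 0.514% and 2.07 ± 0.391%, which was also lower in Tip60 cKO. In limma 35 neighbours were tested, 0 were called and 5 had an unadjusted p below 0.05, beside 11.8% of all TSSs. Nfe2, which is among these 5, passed the filter only through 3 control lists. Smug1 passed it only through 2 Tip60 cKO lists. For these genes the filter itself depends on the genotype, so nothing is read from their differences. The median difference in rank score was -0.79 over these neighbours and -0.69 over all 21672 TSSs. Snf8, a subunit of the ESCRT-II complex on the HoxB side, had the lowest adjusted p (difference 12.8, SE 3.21, adjusted p = 0.130).

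Most of the listed genes known to act on Hox genes had a peak at the TSS in all lists, beside 44.0% of all protein-coding genes. The difference from that share was not tested. Of 23 Polycomb genes 20 had a peak at the TSS in all lists, with the highest mean rank scores of 97.2 in Cbx8 and 97.1 in Ring1, which encodes an H2A ubiquitin ligase. Cbx2 had one in 8 lists, Rbbp7 in 9 and Cbx7 in none. Of 10 MLL and H3K27 demethylase genes 7 had a peak in all lists, led by the methyltransferase gene Kmt2a (98.0), Rbbp5 had one in 9 lists, and Ash2l and Dpy30 had none. Limma called 0 of the 22 Polycomb genes tested and 0 of the 8 MLL and demethylase genes, with 1 and 2 at an unadjusted p below 0.05 (11.8% of all TSSs).

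Partners and relatives of the Hox genes differed among themselves. Of all protein-coding genes, 44.0% had a peak in all lists and 65.3% in any list. The lists below were not tested against these shares. Of 9 genes for HOX cofactors 6 had a peak in all lists, with the highest mean rank score in Pbx2 (97.5), Pbx4 had one in 9, Meis2 in 5 and Meis1 in none. Of 8 Evx and ParaHox genes 2 had a peak in any list, namely the intestinal gene Cdx1 in 9 and Gsx1 in 1. Of 21 homeobox genes of the forebrain 11 (52.4%) had a peak in all lists. Among them were Adnp (98.4), Lhx2 (95.4) and Emx1 (88.4), which act in the cortex and hippocampus. Otx1, Otx2, Dlx2, Nkx2-1 and Zfhx3 had none. Limma called 0 of the 8 cofactor, 1 ParaHox and 15 forebrain homeobox genes tested, and 0 of each had an unadjusted p below 0.05, beside 0.235% of all TSSs called and 11.8% at an unadjusted p below 0.05.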

How the data were processed

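H4K12ac ChIP-Seq peak lists of 5 Tip60 cKO and 5 control mice were used. According to the methods of the study, reads were mapped with STAR to mm10 and PCR duplicates were removed with samtools. Peaks were called by the authors per library with MACS 2.1.0.20140616 (q of 0.1) against 1 pooled input per genotype. The deposited pileup is a coverage signal at the summit. Fold enrichment, as deposited, is a ratio of pileup to background (1 is added to each), and each p-value and q-value was written by the authors as −log10. No read counts were used, and precision rests on the spread between mice.

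TSSs (annotated 5′ ends) came from GENCODE M21 on GRCm38, the same assembly as mm10. A peak counted with at least 1 base within 2 kb. The members and gene lists were chosen with earlier results of these data known. Named in full were Hox genes with a peak or a limma call, the nearest neighbours and genes at the ends of each list's rank scores. Other genes are named as examples. Rank scores were tested with limma 3.58.1 (R 4.3.3, Benjamini-Hochberg adjustment at 0.05), single values with two-sided exact permutation tests over 252 assignments (smallest p 0.00794). Values were computed with Python 3.11.15, numpy 2.4.6 and pandas 2.3.3, and the limma step was tested on simulated data. Labels do not name litters or cohorts, so p-values measure the spread between these libraries. Alternatives were a q of 0.01, equal numbers of peaks, a window of 1 kb, all transcript starts, pileup in place of fold enrichment, a peak in at least 5 lists, lane, replicate block, 50 kb flanks and each library left out.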

Additional observations from a re-analysis of the deposited data

Results flagged for a closer look

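The 26 groups of 5 values behind the results on the clusters and their neighbours were examined for 1 mouse far from the others. Chance alone sets apart about 1 in 20 separate groups, and 4 were found. Several groups restate the length or the strength of the Hoxa7 peak, so the 26 are not separate. The 4 can therefore not be weighed against 1 in 20. Tip60 cKO mouse 2 had a Hoxa7 rank score of 90.6, where the other Tip60 cKO mice lay between 77.1 and 79.9, and hence a mean Hox rank score of 2.32, where they lay between 1.98 and 2.05. These 2 values are the same measurement, since no other Hox gene had a peak. Control mouse 4 had a HoxA coverage relative to the genome of 0.307, where the other controls lay between 0.122 and 0.170. In Tip60 cKO mouse 5, which had the fewest peaks, 70.0% of the neighbouring genes had a peak, where the other Tip60 cKO mice were all at 77.5%.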

How the results depend on the processing

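Of 163 comparisons with another setting over 10 results, 158 stayed on the same side of the threshold or moved by less than the spread between mice. This tally does not measure stability. Coverage of HoxB, HoxC and HoxD, Hox TSSs with a peak and the counts of limma calls were already at a value of 0 in the main setting. The mean rank score of the Hox TSSs, which was tested only as the rank score of Hoxa7, differed by 0.0612. Without Tip60 cKO mouse 2 it differed by -0.0013 (-0.0013 to 0.127 without single libraries). The count of Hox TSSs with a peak differed by 0 between genotypes in each setting run for it. The difference was also 0 at RefSeq starts, a setting added after the data were seen, where no list had a peak. HoxB, HoxC and HoxD differed by 0 in coverage except with 50 kb flanks, where HoxB differed by 0.0236 and HoxC by 0.0203 percentage points (exact permutation p = 1.0 each). The difference in HoxA coverage (-0.0669 percentage points, Tip60 cKO minus control) turned to 0.0064 with 50 kb flanks (p = 0.865, exact permutation test), where flank peaks of Tip60 cKO mice were added, and to 0.0128 relative to the genome (p = 0.746, exact). Without single libraries the unscaled difference ranged from -0.0851 to -0.0439 (exact permutation p from 0.0556 to 0.238). The difference relative to the genome ranged from -0.0173 to 0.0441, so its sign depended on single libraries. With the replicate number as a block the same difference of -0.0669 had p = 0.3125 by exact sign flips of 5 pairs, which cannot go below 0.0625. Mean coverage of Hox TSS windows differed by -0.0451, by -0.0575 to -0.0296 without single libraries, by -0.0215 with all transcript starts and by -0.0902 in windows of 1 kb, as the same peak fills more of a smaller window.

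The difference at Hoxa7 in limma ranged from -0.05 to 4.95 in rank score over 19 settings, with adjusted p from 0.618 to 0.996, and 0 Hox TSSs were called in each. In the 17 settings run for the cluster regions 0 were called, also with the replicate block. The numbers did not pair the mice, as deviations of mice with the same number correlated between -0.0375 and 0.0552. The neighbours' coverage differed by -4.55 percentage points, and by -5.69 to -3.13 without single libraries. It was not scaled to the covered share of the genome, which itself differed by -0.460 percentage points. It differed by -7.32 in windows of 1 kb and by -2.93 with all transcript starts. Depth limits what a missing peak shows. The shallowest library (22864189 tags) still held the Hoxa7 peak, at a pileup of 12 fragments.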
